A study of Drosophila melanogaster with 4 samples.

Results

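The genes described here build epithelial cell junctions and set cell polarity: 45 named Drosophila genes for adherens junctions, apical and basolateral polarity complexes, septate and tricellular junctions, core planar polarity and a pair of other surface proteins. They were chosen by symbol, from a list of names. Of the 45, 39 appeared under those symbols in at least 1 of the authors' 4 deposited tables, which together listed 7451 genes. Single-cell RNA sequencing (droplet-based 10x Genomics) had been run on wing discs, the larval epithelia that give rise to the adult wing, from third-instar (L3) Drosophila melanogaster. Each of the 4 genotypes had 1 library made from a pool of discs.

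The Control genotype was ap-Gal4>GFP/+. The Cdk8-CycC depletion was ap-Gal4>GFP/+; UAS-Cdk8i-cycCi/+. The Med12 depletion was ap-Gal4>GFP/+; UAS-Med12i/+. The combined depletion was ap-Gal4>GFP/+; UAS-Cdk8i-cycCi-Med12i/+. All 4 thus carried the ap-Gal4 driver and GFP, and the 3 depletions added UAS constructs that deplete subunits of the CDK8 module by RNA interference. This module is a detachable kinase part of the Mediator complex of transcription. The driver acts in the dorsal compartment, so GFP-positive cells are dorsal and, in the depletions, express the constructs, whereas the GFP-negative cells beside them are mostly ventral. Any fold between these cell sets therefore mixes dorsal against ventral position with the depletion, and the control library alone has position without depletion.

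Epithelial cells of a disc are joined near their apical side by adherens junctions, in which cadherin on one cell binds cadherin on the next and is tied to actin inside by catenins. The Crumbs and Par proteins define the apical side, and the Scribble module opposes them basolaterally. Below the adherens junctions, insects have septate junctions, the paracellular seal of the epithelium, while core planar polarity proteins orient cells within the plane of the sheet, in the wing visibly as the direction of its hairs.

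Each deposited table gave, for 1 library, the fold of mean expression between GFP-positive and GFP-negative cells and the share of cells of each set in which the gene was found. Only genes with the authors' p below 0.01, computed over the cells of that library, entered a table. A gene left out has no value, and the members that were listed are not the whole group. Positive log2 folds below mean higher mean expression in GFP-positive cells. With 1 library per genotype there is no replicate error and no test, and a gene was called purely on the size of its fold, 1.3 or more (0.38 on the log2 scale), provided 10% or more of the cells in either set had it. The sources used here state no number of cells or molecules, which leaves the depth unknown and allows no interval.

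The libraries differed in detection before any genotype is considered. The median share of GFP-positive cells with a listed gene was 37.2% in Control, 46.7% in Cdk8-CycC depletion, 53.8% in Med12 depletion and 55.6% in the combined depletion. Within every library at least 98.6% of these genes had a higher share of GFP-positive than of GFP-negative cells. Shares are therefore compared below with those of other genes of the same library. Per the authors' deposited tables, the targeted genes followed the labels: CycC was found in 18.9% of GFP-positive against 32.2% of GFP-negative cells in Cdk8-CycC depletion and in 32.8% against 48.0% in the combined depletion. kto, which encodes Med12, was found in 32.0% against 38.9% in Med12 depletion and in 35.0% against 45.4% in the combined depletion, whereas both genes were found in more GFP-positive cells in the libraries where they were not targeted. Of 4 dorsal markers, ap was higher in GFP-positive cells of all 4 libraries, with log2 folds of 0.72 to 1.04. fng and Ser were also higher in each, at 0.30 to 0.37 and 0.27 to 0.55. caps had -0.01 in Control, -0.01 in Cdk8-CycC and -0.05 in Med12, and was not listed in the combined depletion. The pouch gene nub was found in 100% of both sets in each, so the tables describe nub-expressing cells. Its mean expression was lower in GFP-positive cells throughout, with log2 folds of -0.36 in Control, -0.33 in Cdk8-CycC, -0.45 in Med12 and -0.52 in the combined depletion, past the size rule in the last pair. Of 3 markers of the disc epithelium, grh was found in 96.3% and 94.0% of the sets in Cdk8-CycC depletion, the only table that listed it. The others, Fas3 and shg, belong to the junction and polarity genes described here and so give no separate mark of the epithelium. Fas3 was found in 99.1% and 97.8% in Control, the only table that listed it, and shg is described below.

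Junction and polarity transcripts were broadly detected. The only fold between the cell sets to pass the size rule was that of Ten-m, from the pair of other surface proteins. Of the 45 genes, 25 were listed in Control, 34 in Cdk8-CycC depletion, 19 in Med12 depletion and 28 in the combined depletion. In Control none of the 25 was called, where 0.396% of all genes tested were. None of the 34 was called in Cdk8-CycC depletion (0.578% of all genes) and none of the 19 in Med12 depletion (1.23% of all genes). In the combined depletion 1 of 28 was called, Ten-m, which was lower in GFP-positive cells. There 0.91% of all genes tested were called in either direction and 0.446% were called lower. With so few genes called at large, a count of 0 among the members carries little weight. The median log2 fold of the listed members was 0.00, 0.02, 0.03 and 0.03 in the order Control, Cdk8-CycC, Med12 and combined, against 0.00, 0.03, 0.02 and 0.02 for all listed genes. Because listing depends on the authors' p, the member medians describe the listed members only. In Control 5 of the 25 folds lay below and 2 above the central 95% of all genes tested, -0.08 to 0.12. The counts below and above were 0 and 1 in Cdk8-CycC, 1 and 0 in Med12, and 1 and 1 in the combined depletion. Among Control genes found in at least 70% of GFP-positive cells, the central 95% was -0.24 to 0.29. None of the 13 members so detected lay outside it.

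**Figure D1:**
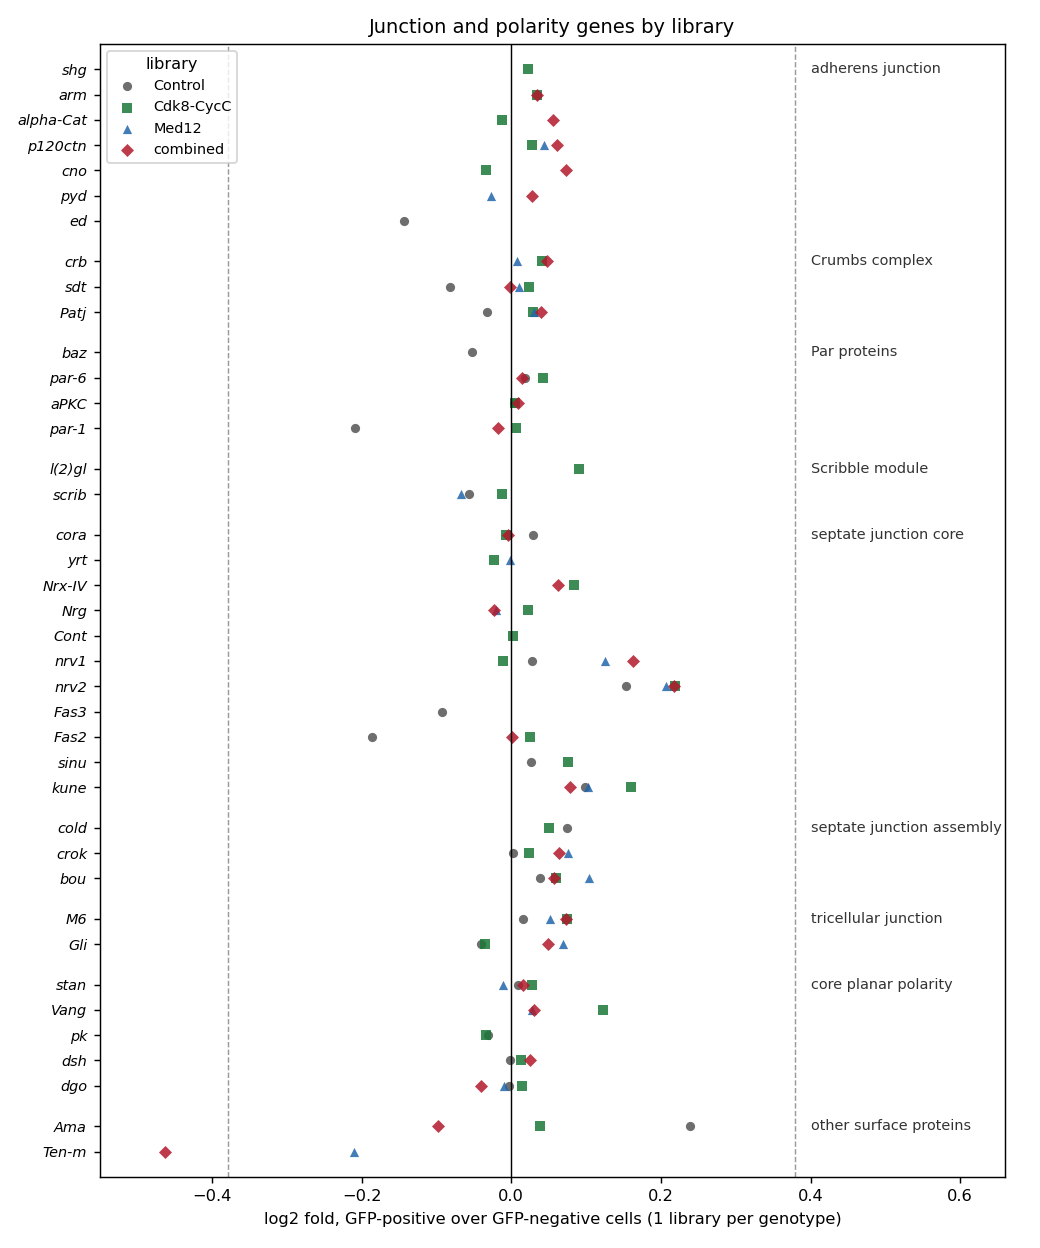
Log2 fold of mean expression, GFP-positive over GFP-negative cells (horizontal axis), for each junction or polarity gene listed in at least 1 of the authors' deposited tables, grouped by role. Each point is 1 library and the dashed lines mark a fold of 1.3 in either direction. A missing point means that the gene was not listed. Only Ten-m, from the pair of other surface proteins, lies beyond a dashed line, at -0.46 in the combined depletion.

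Most members were found in most cells. In the authors' deposited tables the median share of GFP-positive cells with a listed member was 70.1%, 78.4%, 83.2% and 85.8% in the same order of libraries, and that of GFP-negative cells was 57.9%, 63.65%, 69.6% and 74.55%. Of the listed members, 25 of 25, 34 of 34, 18 of 19 and 27 of 28 had the higher share in GFP-positive cells. The exception in the Med12 and combined depletions was Ten-m both times. For a closer reading, the share of GFP-positive cells with each member was set beside the shares of all genes whose GFP-negative share lay within 3 percentage points of it. Every listed member of the Control and Cdk8-CycC libraries lay inside the central 95% of those genes, between 3.4 points below and 4.0 points above their median. In the Med12 depletion 18 of 19 did and in the combined depletion 27 of 28, and Ten-m was the member outside in each.

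**Figure D2:**
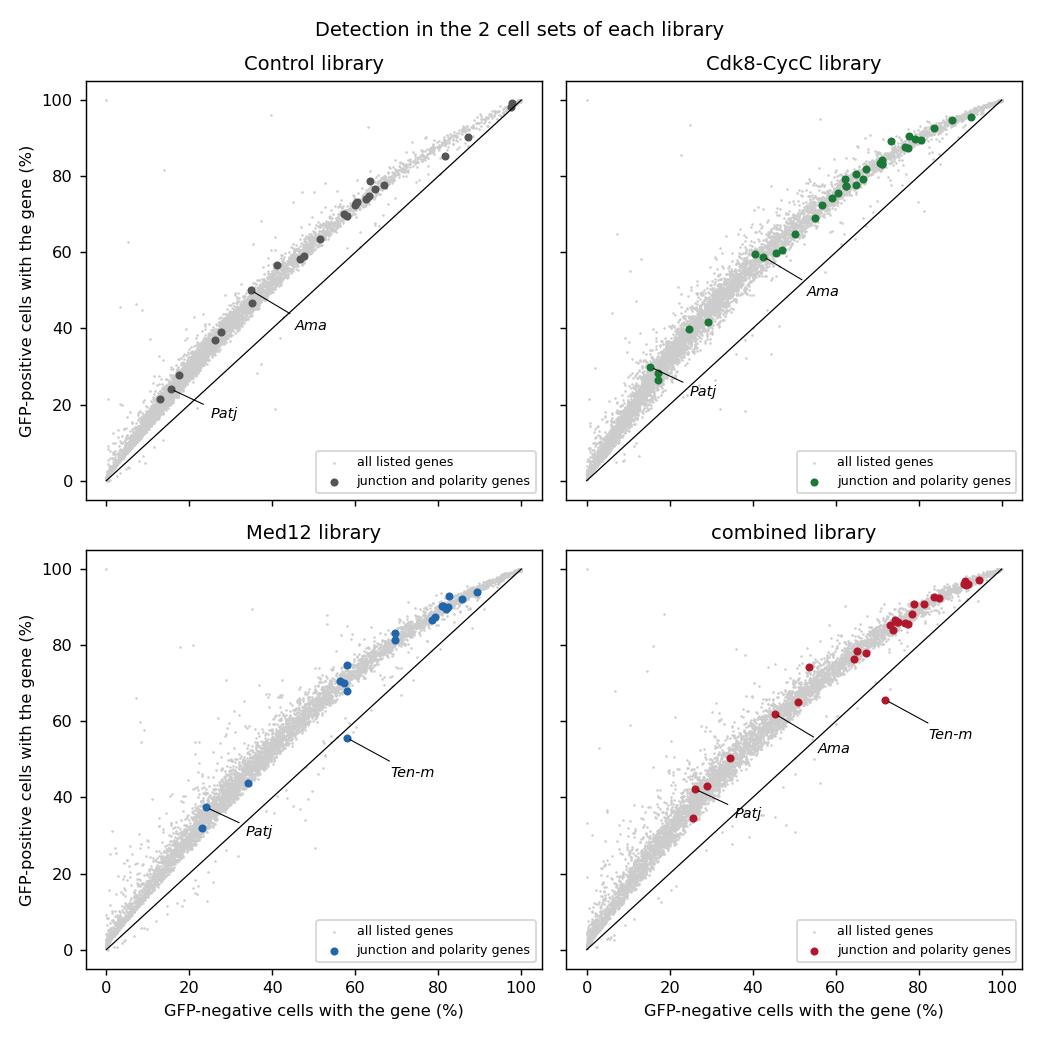
Share of GFP-positive cells (vertical axis) against share of GFP-negative cells (horizontal axis) with each gene, in percent, 1 panel per library, with all listed genes in grey and junction and polarity genes in colour. Points above the diagonal line are genes found in more GFP-positive cells; the members follow the grey band except Ten-m, which lies 15.6 points below the median of genes with a like GFP-negative share in the Med12 depletion and 18 points below it in the combined depletion.

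Ten-m (FBgn0004449) encodes a teneurin, a large transmembrane protein that mediates contacts between cells and is known for matching partner neurons in the fly brain. It was not listed in the Control or Cdk8-CycC tables. In the authors' deposited table for the Med12 depletion it was found in 55.7% of GFP-positive against 57.9% of GFP-negative cells, with a log2 fold of -0.21. In that for the combined depletion it was found in 65.7% of GFP-positive against 71.9% of GFP-negative cells, with a log2 fold of -0.46, which is 1.38-fold lower. Both libraries with Med12 depleted thus had Ten-m lower in GFP-positive cells by mean expression and by share. No difference from Control could be formed, since Ten-m had no control value. Set directly against the Med12 depletion, the combined depletion was lower by a log2 difference of -0.25, short of the size rule. The tracheal marker trh was also listed in these libraries alone and lower in GFP-positive cells, at -0.12 with 26.2% against 28.9% of cells in the Med12 depletion and at -0.17 with 32.5% against 35.1% in the combined depletion. The other tracheal markers, verm and serp, were listed in all 4 tables. verm had log2 folds of 0.09, 0.14, -0.02 and -0.12 in Control, Cdk8-CycC, Med12 and combined, and serp had 0.10, 0.15, 0.13 and -0.01. Their shares, unlike those of trh, were higher in the GFP-positive set. In the Med12 depletion verm had 74% against 63.7% and serp 59.1% against 45.3%. In the combined depletion verm had 78.3% against 66.2% and serp 64.2% against 46.8%. The summed share of the list ran from 117.3 to 175 percentage points in GFP-positive and from 89.3 to 148.1 in GFP-negative cells. The list's sum holds 2 genes in Control and Cdk8-CycC and 3 in the other pair, and over verm and serp alone it ran from 117.3 to 142.5 in GFP-positive and from 89.3 to 113.0 in GFP-negative cells. The pouch gene nub was past the size rule, lower in GFP-positive cells, in the same pair of libraries in which Ten-m was listed, whereas the pouch gene vg was at 0.18 in the Med12 and 0.22 in the combined depletion and rn and Dll were listed in neither. The part of tracheal or pouch cells in the Ten-m values was not tested. The exons of Ten-m overlap those of lncRNA:CR45962 on the same strand in the reference fly annotation, and the sources used here do not say how the authors' counting assigned reads there.

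Ama (FBgn0000071) encodes Amalgam, a secreted immunoglobulin-domain protein that binds the adhesion protein Neurotactin. The authors' deposited tables gave it a log2 fold of 0.24 in Control, with 50.0% of GFP-positive against 34.9% of GFP-negative cells. In Cdk8-CycC depletion the log2 fold was 0.04, with 58.9% and 42.5%. In the combined depletion it was -0.10, with 62.0% and 45.3%, and in the Med12 depletion Ama was not listed. Mean expression thus favoured GFP-positive cells in Control and GFP-negative cells in the combined depletion, while the shares favoured GFP-positive cells in each. The log2 ratio of the shares was 0.52, 0.47 and 0.45 in the same order, so it moved far less than the fold of the mean. The difference from Control was -0.20 for Cdk8-CycC depletion and -0.34 for the combined depletion, neither past the size rule. Nrt, the gene of Neurotactin, was listed for the Med12 depletion alone, with a log2 fold of -0.24 and 50.8% of GFP-positive against 52.6% of GFP-negative cells.

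**Figure D3:**
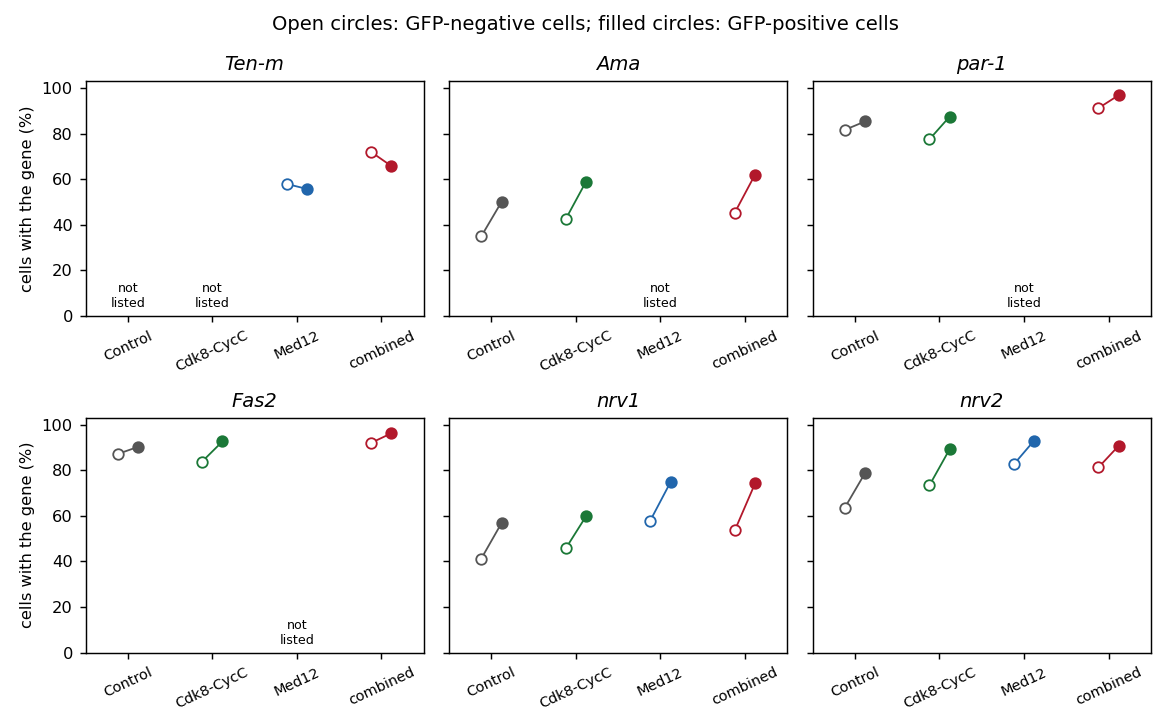
Percent of cells with the gene (vertical axis) in GFP-negative cells (open circles) and GFP-positive cells (filled circles) of each library, for Ten-m, Ama, par-1, Fas2, nrv1 and nrv2. The line falls for Ten-m in both libraries that list it, from 57.9% to 55.7% and from 71.9% to 65.7%, and rises for the other 5 genes wherever they were listed.

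Adherens junction genes had folds close to 0. shg (FBgn0003391), which encodes E-cadherin, was listed in Cdk8-CycC depletion alone, with a log2 fold of 0.02 and 89.5% of GFP-positive against 80.5% of GFP-negative cells. arm, the fly beta-catenin, had a log2 fold of 0.03 in both the Cdk8-CycC and combined depletions. alpha-Cat, which links the complex to actin, had -0.01 and 0.06 in the same libraries, and cno, an actin-binding scaffold of the junction, had -0.03 and 0.07. p120ctn, the catenin that binds the cadherin tail nearer the membrane, was listed in the 3 depletions and had 0.03, 0.04 and 0.06 for Cdk8-CycC, Med12 and combined. It had the highest median fold of the group, but all of its values were below 0.1. pyd, the fly ZO-1 protein, had -0.03 in the Med12 and 0.03 in the combined depletion. The lowest value of the group was that of ed, which encodes the immunoglobulin-type adhesion protein Echinoid, at -0.14 in Control with 98.2% of GFP-positive against 97.4% of GFP-negative cells. ed was listed in no depletion, so its difference from Control is unknown, and Nectin was listed in no table.

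Among apical genes, crb, the transmembrane determinant of the apical side, was listed in the 3 depletions at 0.04 for Cdk8-CycC, 0.01 for Med12 and 0.05 for the combined depletion on the log2 scale. sdt, which encodes its scaffold Stardust, was listed in all 4 tables at -0.08 in Control, 0.02 in Cdk8-CycC, 0.01 in Med12 and -0.00 in the combined depletion. Its difference from Control was 0.11 for Cdk8-CycC, 0.09 for Med12 and 0.08 for the combined depletion. Control held the lowest sdt value, and the 3 depletions lay within 0.03 of each other. Patj, a further Crumbs complex scaffold, had -0.03 in Control and 0.03, 0.03 and 0.04 in the depletions. It was the complex member found in the fewest cells, in 24.1% to 42.2% of GFP-positive and 15.3% to 26.1% of GFP-negative cells over the 4 libraries.

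Par genes were absent from the Med12 table. baz, which encodes the fly Par-3, was listed in Control alone, at -0.05. par-6 had log2 folds of 0.02, 0.04 and 0.01 in Control, Cdk8-CycC and the combined depletion, and aPKC, the kinase that binds Par-6, had 0.00, 0.00 and 0.01. The kinase gene par-1 (FBgn0260934), whose product acts basolaterally, differed more. The authors' deposited tables had par-1 in 85.3% of GFP-positive against 81.6% of GFP-negative cells of Control with a log2 fold of -0.21. In Cdk8-CycC depletion the shares were 87.4% and 77.4% with a fold of 0.01, and in the combined depletion they were 96.8% and 91.1% with a fold of -0.02. The fold was near 0 in both depletions and below 0 in Control, so the differences from Control, 0.22 and 0.19, rest on the control value. par-1 shares exon sequence on the same strand with mei-W68 in the annotation. Of the Scribble module, scrib had -0.06 in Control, -0.01 in Cdk8-CycC and -0.07 in Med12, l(2)gl had 0.09 in Cdk8-CycC depletion alone, and dlg1 was listed in no table.

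Of the septate junction genes, nrv2 and kune had folds above 0 in every table. nrv2 (FBgn0015777), a beta subunit of the sodium pump that the junction needs, had log2 folds of 0.15 in Control, 0.22 in Cdk8-CycC, 0.21 in Med12 and 0.22 in the combined depletion. It was found in 78.8% of GFP-positive against 63.6% of GFP-negative cells of Control, and in 89.2% and 73.3%, 93.0% and 82.6%, and 90.7% and 81.2% of those of the depletions in the same order. nrv2 was thus above 0 in Control as well, and its differences from Control were 0.07, 0.05 and 0.06. nrv1 (FBgn0015776), the next protein-coding gene in the annotation and another beta subunit, had 0.03 in Control, -0.01 in Cdk8-CycC, 0.13 in Med12 and 0.16 in the combined depletion. Its shares were 56.8% and 41.2% in Control, 59.8% and 45.7% in Cdk8-CycC, 74.8% and 57.9% in Med12, and 74.2% and 53.6% in the combined depletion. nrv1 was higher in the pair of libraries with Med12 depleted than in the other pair. Its differences from Control were -0.04, 0.10 and 0.14, all within the size rule, and the combined minus Cdk8-CycC difference was 0.17.

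Of the claudin-like septate junction genes, kune had log2 folds of 0.10 in Control and 0.16, 0.10 and 0.08 in the Cdk8-CycC, Med12 and combined depletions. sinu, also claudin-like, had 0.03 in Control and 0.08 in Cdk8-CycC depletion. Fas2 (FBgn0000635), an immunoglobulin-type adhesion protein better known from neurons, had -0.19 in Control with 90.2% of GFP-positive against 87.1% of GFP-negative cells. In the Cdk8-CycC depletion it had 0.02 with 92.6% and 83.8%, and in the combined depletion 0.00 with 96.2% and 92.0%. As with par-1, the depletion values lay near 0 and the control value below it, which gave differences of 0.21 and 0.19. Fas3, a further adhesion protein of the junction, was listed in Control alone at -0.09. The FERM-domain gene cora had 0.03, -0.01 and -0.00 in Control, Cdk8-CycC and the combined depletion. yrt, Nrx-IV, Nrg and Cont, which encode another FERM protein and the transmembrane proteins Neurexin IV, Neuroglian and Contactin, lay between -0.02 and 0.08 wherever they were listed.

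Of the 4 septate junction assembly genes, crok, bou and cold encode small Ly6-type proteins needed to form the junction, and Mtf encodes the fly melanotransferrin. crok had log2 folds of 0.00, 0.02, 0.08 and 0.06 in Control, Cdk8-CycC, Med12 and combined, and bou had 0.04, 0.06, 0.10 and 0.06. cold was listed in Control at 0.07 and in Cdk8-CycC depletion at 0.05. Both Ly6 genes listed in all 4 tables were above 0 throughout, with values of at most 0.10. At tricellular junctions, M6 had 0.02, 0.07, 0.05 and 0.07, and Gli, which encodes Gliotactin, had -0.04, -0.04, 0.07 and 0.05. Gli lay below 0 in Control and Cdk8-CycC depletion and above 0 in the pair of libraries with Med12 depleted, with a difference from Control of 0.11 for Med12 and 0.09 for the combined depletion.

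Glial cells also use septate junctions, so glial markers are given beside these genes. Of 3 glial markers, repo and gcm were listed in no table, and moody was found in 7.8%, 10.0%, 19.5% and 23.3% of GFP-positive cells against 2.2%, 2.1%, 2.9% and 3.9% of GFP-negative cells in the order Control, Cdk8-CycC, Med12 and combined. The part of this shift in the septate junction values was not tested. Of 4 hemocyte markers none was listed in any table, and of 5 myoblast markers only Mef2 was, in the Cdk8-CycC and combined depletions. Of 3 neuronal markers only elav was listed, in 57.4% to 81.4% of GFP-positive and 45.9% to 60.4% of GFP-negative cells. Of 2 markers of the peripodial layer, Ubx, also a marker of the haltere disc, was far higher in GFP-positive cells of all 4 libraries, Control included, with log2 folds of 3.86 to 4.62. It was found in 96.0%, 93.5%, 89.4% and 88.1% of GFP-positive cells against 39.7%, 24.8%, 35.1% and 18.6% of GFP-negative cells in the order Control, Cdk8-CycC, Med12 and combined, so most GFP-positive cells had it. Antp, the other marker, differed far less, with log2 folds of 0.04, 0.03, 0.23 and 0.21 in the same order. It was found in 53.6%, 54.0%, 67.1% and 82.8% of GFP-positive against 41.7%, 40.4%, 38.4% and 60.5% of GFP-negative cells. The part of Ubx and Antp in the junction gene values was not tested.

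Core planar polarity genes differed little. stan, which encodes the atypical cadherin Flamingo, had log2 folds of 0.01, 0.03, -0.01 and 0.02 in Control, Cdk8-CycC, Med12 and combined. Vang, the transmembrane protein of the proximal side of wing cells, had 0.12, 0.03 and 0.03 in the 3 depletions. The cytoplasmic genes pk, dsh and dgo lay between -0.04 and 0.03 in every table that listed them. Vang in Cdk8-CycC depletion was thus the only core planar polarity value above 0.1, and Vang had no control value to set it against.

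Compared with Control, no listed member passed the size rule in any depletion. In the Cdk8-CycC depletion 22 members had a value in both tables and none was called, against 0.118% of 5073 genes. In the Med12 depletion 12 had both values and none was called, against 0.38% of 4473 genes, and in the combined depletion 18 had both and none was called, against 0.414% of 4835 genes. The differences ran from -0.20 to 0.22, from -0.02 to 0.11 and from -0.34 to 0.19. Each of the 3 differences subtracts one and the same Control table, and anything peculiar to that table enters all of them. The high end of the Cdk8-CycC and combined differences was held by par-1 and Fas2, and the low end by Ama. The other members of both comparisons lay inside the central 95% of all genes compared, as did all 12 of the Med12 comparison. That range was not matched for detection. The Control folds of par-1 and Fas2, -0.21 and -0.19, lay inside the central 95% of Control genes found in at least 70% of GFP-positive cells, -0.24 to 0.29.

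**Figure D4:**
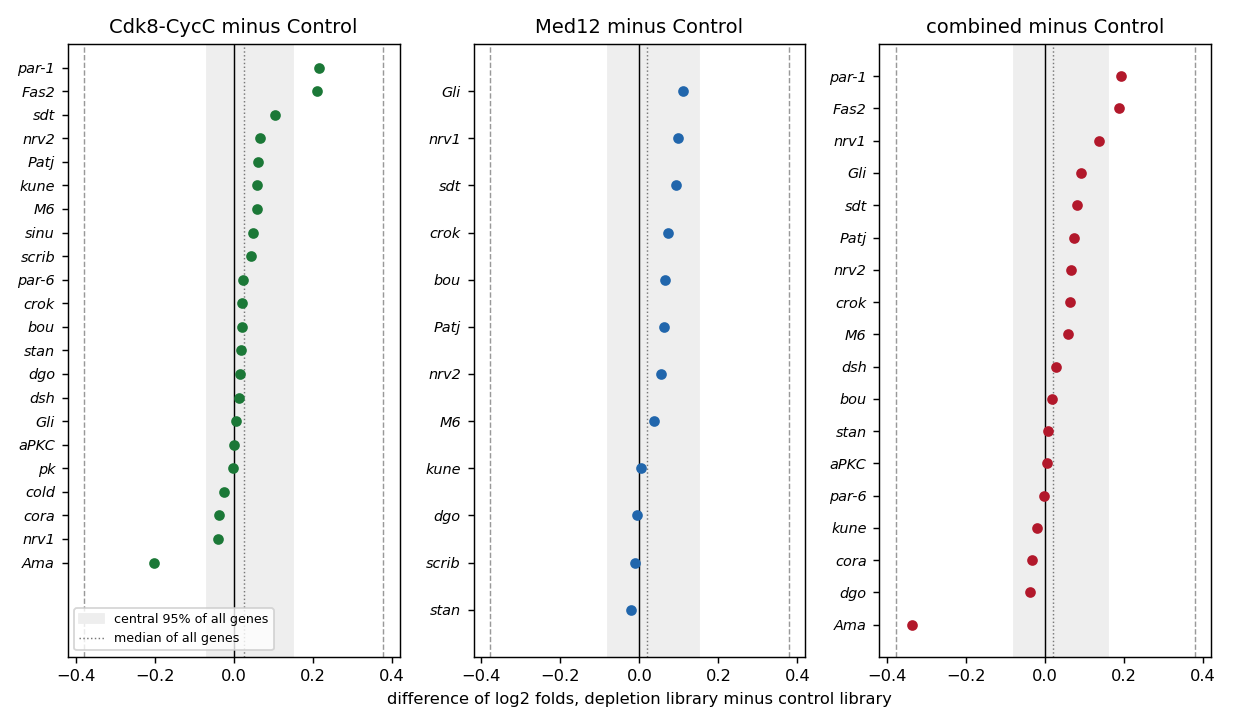
Difference of log2 folds, depletion library minus control library (horizontal axis), for each junction or polarity gene with a value in both tables, 1 panel per depletion; each point is a difference between 2 single libraries. Grey shading is the central 95% of all genes compared, not matched for detection, the dotted line their median and the dashed lines a fold of 1.3. Only par-1, Fas2 and Ama lie outside the shading, in the Cdk8-CycC and combined panels.

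The depletions were also set against each other, which leaves the control library out. Between Cdk8-CycC and Med12 none of 17 members was called, against 0.417% of all genes compared. Between the combined and Med12 depletions none of 17 was called, against 0.0602%, and between the combined and Cdk8-CycC depletions none of 26, against 0.391%.

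Of the 11 members listed in all 4 tables, 5 had a fold above 0 in each (nrv2, kune, crok, bou and M6), none was below 0 in each and 6 took both signs. Of the 33 members listed in at least 2 tables, 25 had folds that differed by less than 0.1 on the log2 scale between their highest and lowest library. The 6 members listed in no table under the names used were Nectin, dlg1, mega, ATPalpha, Mtf and aka. The last 4 were listed under current symbols: pck (for mega) at 0.04, 0.03 and 0.07 in Control, Cdk8-CycC and Med12, Atpalpha at 0.03 in Cdk8-CycC, Tsf2 (for Mtf) at 0.04, -0.02 and 0.02 in the 3 depletions, and bark (for aka) at -0.01 and -0.04 in the Cdk8-CycC and combined depletions. None of these passed the size rule.

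Genes related to the group were read in the same way. Of 49 genes in 6 lists (other septate junction, smooth septate junction, Fat-Dachsous planar polarity, other planar polarity, junctional actomyosin, and other cadherins and adhesion), 25 were listed in Control, 35 in Cdk8-CycC, 36 in Med12 and 34 in the combined depletion. The lists and the counts for the 3 depletions include Tsf2, which is the member Mtf. None was called in Control, Cdk8-CycC or Med12, where 0.396%, 0.578% and 1.23% of all genes tested were, and in the combined depletion 1 was, against 0.91% of all genes. That gene was ds, which encodes the atypical cadherin Dachsous of the Fat-Dachsous polarity system. The authors' deposited tables gave ds a log2 fold of -0.04 in Cdk8-CycC depletion with 73.0% of GFP-positive against 61.4% of GFP-negative cells. In the Med12 depletion it was -0.25 with 71.7% and 68.3%, and in the combined depletion -0.48 with 85.8% and 81.4%. ds was not listed in Control. Its partner ft, encoding the cadherin Fat, had 0.14, 0.13, 0.14 and 0.17 in Control, Cdk8-CycC, Med12 and combined, so ft was above 0 in every library with values within 0.04 of each other. fz, the Frizzled receptor of planar polarity, was listed for the Med12 depletion alone at -0.22 with 91.8% of GFP-positive against 89.3% of GFP-negative cells. Of the actomyosin genes, zip, the myosin heavy chain, had 0.16, 0.05 and 0.17 in the Cdk8-CycC, Med12 and combined depletions, and Moe, which ties actin to the membrane, had 0.09, 0.08 and 0.19. kirre, an immunoglobulin-type adhesion gene, had 0.27, 0.22, 0.15 and 0.08 in Control, Cdk8-CycC, Med12 and combined.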

How the data were processed

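Cells of 4 wing disc libraries had been processed with Cell Ranger 3.0.2 and Seurat, per the submitters' processing notes. Not given in the sources used here are the genome build, the Seurat version, cell filters and doublet handling. The authors deposited 1 table per library. Its fold is a natural log ratio of mean expression between cell sets as read from the authors' column name, whose header does not state the base; it is taken to include a pseudocount of 1, which understates the change of low genes. For detection, the authors deposited for each gene the fraction of a set's cells that had it, printed here as a percentage. The deposited p-value compares the cells of a single library, lay below 0.01 for every listed gene and was not used as a test, since cells are not replicates.

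Folds were converted to log2 with Python 3.11.15, pandas 2.3.3 and numpy 2.4.6, signed by the column that names the cell set with the higher mean. A difference is the log2 fold of a depletion minus that of Control, over genes listed in both tables and found in 10% or more of either set's cells. Genes were called at a fold of at least 1.3. The signing, subtraction and calling steps were tested on simulated folds with known differences. The simulated libraries differed only by them, so the test does not address noise, depth or the listing limit on p. Symbols were matched as deposited. Genes past the size rule, the member with the highest and lowest median fold in each role, and the 5 highest and 5 lowest differences of each depletion were named, and others were added after their values were seen. The members and lists were chosen with earlier results of these data known.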

Additional observations from a re-analysis of the deposited data

Results flagged for a closer look

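Ama changed direction between libraries without a test: its log2 fold between GFP-positive and GFP-negative cells was 0.24 in Control and -0.10 in the combined depletion. The difference between these genotypes was not tested, since each has 1 library.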

How the results depend on the processing

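Of 59 counts of members past the size rule computed under alternatives, 44 stayed within 1.5 times the reported count. By detection shares in place of mean expression, 8, 8, 2 and 6 members passed within Control, Cdk8-CycC, Med12 and combined, where 71.2%, 74%, 54.9% and 61.7% of all genes tested did, against 32%, 23.5%, 10.5% and 21.4% of the listed members. Once the ratios were centred on the all-gene median, 4, 7, 1 and 4 passed. These were 16%, 20.6%, 5.26% and 14.3% of the listed members, beside 6.91%, 17.1%, 9.49% and 13.4% of all genes. A gene found in nearly all cells of both sets cannot have a large ratio of shares, so subtracting the all-gene median lowers it whatever its expression. The 4 in Control were ed, Fas3, Fas2 and par-1, found in 85.3% to 99.1% of GFP-positive cells. With molecules estimated from detection, an alternative chosen after seeing the data, 3, 1 and 1 passed in Control, Cdk8-CycC and Med12. Those were 12%, 2.94% and 5.26% of the listed members, beside 4.69%, 8.55% and 7.71% of all genes. In the combined library the count fell to 0 at 1.5-fold and to 0 with the deposited fold read as log2. Ten-m was then at -0.32, and its log2 ratio of detection shares was -0.13, or -0.58 after centring. The sign of the small median differences from Control depended on the setting, and 8 of 27 alternative values were below 0. For Cdk8-CycC the reported 0.02 became -0.0046 when centred, -0.07 by centred detection shares and -0.05 by estimated molecules. For Med12 the reported 0.06 became -0.089 by detection shares, where that of all genes was -0.086, and -0.0034 by centred shares. For the combined depletion the reported 0.04 became -0.05 by detection shares, -0.02 by centred shares and -0.02 by estimated molecules. Against Control, 1 member passed in the combined depletion at 1.2-fold (Ama, beside 0.848% of all genes). With unlisted genes set to 0, 1 passed (Ten-m, beside 0.526%). Ten-m has no control value, so that result only repeats its log2 fold of -0.46 within the combined library. The cause of these shifts was not tested. No paired analysis was possible because each genotype has 1 library. Unknown cell numbers, the listing limit on p and unequal detection between libraries limit every comparison, and an unlisted gene is not an unchanged one.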
